A study of Homo sapiens with 20 samples.

Results

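The genes described here are 10 ligands of the B7 family and their adhesion partners, the surface molecules with which a lymphoma cell meets a T cell or an NK cell. They are CD274, PDCD1LG2, CD80, CD86, HHLA2, CD276, CD83, ICAM1, CD58 and CD48. Each was read by the probe set that the platform annotation gives to that symbol alone, which left 1 probe set a gene, 10 of 33268 on the array and 10 of the 18416 genes with a probe set of their own. All 10 reached the level asked of a tested gene, a log2 value of at least 5 in at least 2 arrays, but HHLA2 did so only through SUP-HD1.

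PD-L1, encoded by CD274, and PD-L2, encoded by PDCD1LG2, bind PD-1 and dampen T cells. CD80 and CD86 bind CD28, which costimulates, and CTLA-4, which inhibits. ICAM1 holds the integrin LFA-1, and CD58 holds CD2, in the contact between the cells. In classical Hodgkin lymphoma, gains of 9p24 that carry CD274, PDCD1LG2 and JAK2 are a known lesion, and NF-kB and JAK-STAT signalling are known to be active.

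Total RNA was measured on Affymetrix Human Gene 1.0 ST arrays in 5 established lines labelled as classical Hodgkin lymphoma: SUP-HD1, UHO-1, KM-H2, L428 and L1236. In every one a fusion called FOXO1(3A)ER was stably present, in which an always active mutant of FOXO1, a transcription factor, is joined to the oestrogen receptor's ligand-binding domain. Each line was kept for 24 h with 4-OHT (4-hydroxytamoxifen), which binds that domain, or with the ethanol vehicle, and each arm had 2 arrays, 20 in all. Vehicle cells therefore carried the fusion too, and since no line lacking it is among the treated arrays, what 4-OHT does by itself cannot be told apart from what FOXO1 does. The promoter that drives the fusion is not stated, nor whether a line was 1 clone. A treatment text that names KM-H2 and L428 with a different fusion, KLF4ER, gives 200 µM, and the dose is quoted only as labelled. It also says that the experiment was done 2 times. Beyond that no source tells whether an arm's arrays had cultures of their own, and the p-values rest on array-to-array spread that may be partly technical.

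Values are log2 signals. The arrays of KM-H2 and L428 had medians of 5.67 to 5.71 and those of the other 3 lines 6.26 to 6.41, and the values show that the sets were normalised separately. Levels were therefore set side by side only within a set. Known FOXO-induced genes were read as a description of the treatment's effect. Their list was chosen with earlier results of these data known, so it is no independent check. Of 19 tested, 12 were called higher with 4-OHT in KM-H2 (10.0% of all genes) and 17 in L428 (12.0%). In UHO-1 13 were higher (13.4%), in SUP-HD1 10 (3.68%) and in the arrays labelled L1236 14 (8.25%). In the arrays labelled L1236 2 of the 19 were called lower, against 14.9% of all genes. PRDM1, a regulator of plasma cell differentiation, was higher in all 5. The ubiquitin ligase gene FBXO32 was higher in 4 of 5, with a change of 0.12 log2 units and no call in the arrays labelled L1236.

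The arrays labelled L1236 differed from UHO-1 and SUP-HD1 in most T cell markers and in part of the Hodgkin markers. Of 9 T cell markers, 7 lay higher in all 4 of these arrays than in every array of UHO-1 and SUP-HD1. CD3D, a chain of the T cell receptor complex, lay between 11.18 and 11.37 in these 4 arrays and between 4.98 and 5.43 in UHO-1. CD3E lay between 12.06 and 12.25, against 5.42 to 5.69 in UHO-1. TRAT1, another component of that complex, lay between 11.05 and 11.48, against 4.50 to 5.08. The other 2 markers did not stand apart in this way: CD4 lay between 5.63 and 5.91, against 10.15 to 10.41 in UHO-1 and 5.53 to 5.84 in SUP-HD1, and CD8B between 5.59 and 5.81, against 5.26 to 5.62 in UHO-1. IRF4, a transcription factor high in Hodgkin cells, lay between 6.14 and 6.49, against 12.17 to 12.29 in UHO-1 and 12.10 to 12.13 in SUP-HD1. The summed level of the 8 Hodgkin markers was 10.00 to 10.16 with 4-OHT and 10.01 to 10.21 with vehicle in the arrays labelled L1236. In SUP-HD1 it was 13.08 to 13.10 with 4-OHT and 13.06 to 13.08 with vehicle. Not every one of the 8 was low in the arrays labelled L1236. TNFRSF8 lay between 7.49 and 7.84, against 7.02 to 7.33 in SUP-HD1 and 10.21 to 11.12 in UHO-1. FUT4 lay between 7.80 and 7.93, against 8.08 to 8.34 in SUP-HD1 and 8.04 to 8.33 in UHO-1. PAX5, a B cell factor, differed from its UHO-1 vehicle level by -3.35 log2 units, whereas CD79A differed by 3.22. Both arms showed the pattern. These 4 arrays are called the arrays labelled L1236 throughout, and what rests on them is given without them as well.

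Changes were tested with limma across 15850 genes, and a gene is called when its Benjamini-Hochberg adjusted p is below 0.05. In KM-H2 3 of the 10 genes were called higher and 5 lower, where 10.0% of all genes tested were called higher, 12.3% lower and 22.3% either way. In L428 3 were higher and 1 lower, against 12.0% and 17.5% of all genes, 29.5% together. In the arrays labelled L1236 1 was higher and 2 lower, against 8.25% and 14.9%, 23.1% together. In UHO-1 limma called 1 higher and 0 lower, against 13.4% and 11.1%, 24.5% together. At an unadjusted p below 0.05 CD83, ICAM1 and CD86 were higher there and CD48 was lower. In SUP-HD1 1 was higher and 1 lower, against 3.68% and 2.35%, 6.03% together. The 8 called in KM-H2 fell to 5 without its vehicle array 2 or its 4-OHT array 1. With arrays centred on their medians 3 were called in UHO-1, against 21.2% of all genes. Without the arrays labelled L1236 KM-H2 had 8 called (23.4% of all genes), L428 5 (30.8%), SUP-HD1 2 (6.61%) and UHO-1 2 (28.1%). These shares were not tested against each other. In bulk RNA, fewer cells with a transcript and less of it per cell cannot be told apart. The median change of the 10 genes was -0.22 log2 units in KM-H2, 0.12 in L428, 0.04 in UHO-1, 0.01 in SUP-HD1 and -0.05 in the arrays labelled L1236, where the medians of all genes lay between -0.03 and 0.00.

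**Figure D1:**
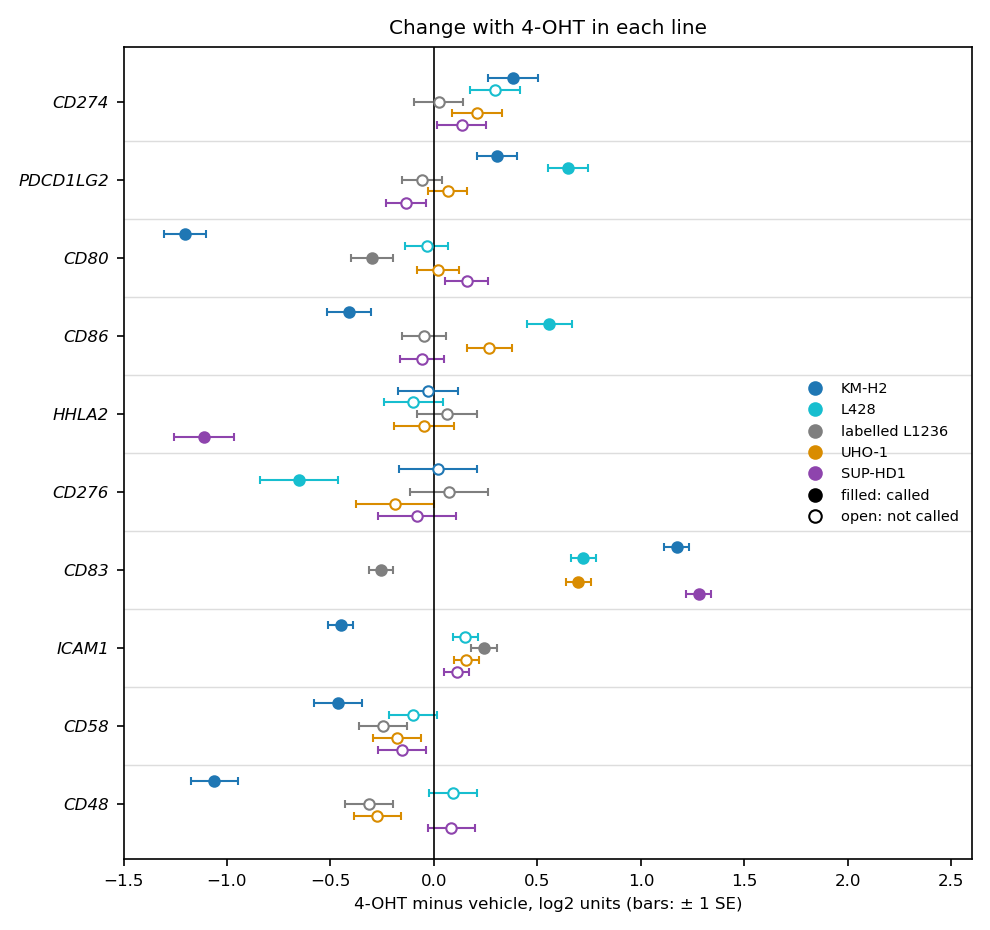
Change with 4-OHT (4-OHT minus vehicle, log2 units, horizontal axis) of the 10 genes in each of the 5 lines, with bars of 1 SE from the fit, 2 arrays an arm. Filled points were called; CD83 lies to the right of 0 in 4 lines and to the left in the arrays labelled L1236, while CD80, CD48, CD58, ICAM1 and CD86 are called lower in KM-H2.

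CD274 had a positive difference in all 5 lines and was called in KM-H2 alone. In KM-H2 it had 5.15 and 5.03 with 4-OHT, against 4.77 and 4.64 with vehicle. In L428 it had 6.25 and 6.13 with 4-OHT, against 5.81 and 5.98 with vehicle. The arms did not overlap in either line, and the KM-H2 vehicle arrays lay below 5, where signal is hard to tell from background. The change in KM-H2 was 0.38 ± 0.12 log2 units (SE, 2 arrays an arm; adjusted p = 0.0224), and that in L428, 0.30 ± 0.12, was not called (adjusted p = 0.0692). It was called when the arrays labelled L1236 were left out (0.0128) and in a replicate block with their numbers crossed (0.0155).

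UHO-1 had 10.25 and 10.21 for CD274 with 4-OHT, against 10.12 and 9.93 with vehicle. SUP-HD1 had 11.97 and 12.01 with 4-OHT, against 11.91 and 11.80. In the arrays labelled L1236 the arms overlapped, with 5.99 and 5.76 with 4-OHT against 5.62 and 6.08. None of these 3 changes was called: they were 0.21, 0.13 and 0.02 log2 units in that order of lines. Averaged over the 5 lines CD274 was 0.21 ± 0.05 log2 units higher (adjusted p = 0.0032), a ratio of 1.16, and without the arrays labelled L1236 0.25 ± 0.04 (8.61e-05). A change of one sign in all 5 lines, which CD274 and CD58 had, was seen in 16.5% of all genes. HHLA2 lay at background outside SUP-HD1, so its sign adds no support to the count that follows. Without the arrays labelled L1236 4 of the 10, CD274, CD83, HHLA2 and CD58, had one sign in the 4 lines left, against 26.9% of all genes. The test of whether the change varied between lines was not passed (adjusted p = 0.369), nor without the arrays labelled L1236 (0.339), though it was passed without the first vehicle array labelled L1236 (0.0306); a missed threshold does not show that the lines responded alike. The KM-H2 call was lost without its vehicle array 2 (adjusted p = 0.167), without its 4-OHT array 1 (0.170), with median centring (0.0626) and with quantile normalisation (0.0544).

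PDCD1LG2 was higher in the lines of the first set. In KM-H2 it had 7.69 and 7.69 with 4-OHT, against 7.35 and 7.42 with vehicle. In L428 it had 6.77 and 6.95 with 4-OHT, against 6.17 and 6.27 with vehicle. The arms were apart in both, by 0.30 ± 0.09 log2 units in KM-H2 (adjusted p = 0.022) and 0.65 ± 0.09 in L428 (1.15e-05, ratio 1.57). The KM-H2 call was lost when any of that line's 4 arrays was left out (adjusted p up to 0.145).

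In the other lines PDCD1LG2 changed by -0.06 (arrays labelled L1236), 0.07 (UHO-1) and -0.13 (SUP-HD1) log2 units, none of them called. The change varied between lines (F test, adjusted p = 0.00032; 6.36e-05 without the arrays labelled L1236), as did that of 42.7% of all genes. The difference between KM-H2 and L428 itself, -0.34 ± 0.13, was not called (0.0719). The average of 0.17 ± 0.04 (adjusted p = 0.0032) rested on L428, without which it was 0.04 (0.515).

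The vehicle levels of both PD-1 ligands followed one order in the set of 3 lines. SUP-HD1 had a mean of 11.86 for CD274, UHO-1 10.03 and the arrays labelled L1236 5.85. For PDCD1LG2 the means were 11.15 in SUP-HD1, 9.39 in UHO-1 and 4.91 in the arrays labelled L1236. UHO-1 minus SUP-HD1 was -1.83 ± 0.12 log2 units for CD274 (adjusted p = 4.95e-12) and -1.77 ± 0.09 for PDCD1LG2 (1.39e-13). In the other set the order turned between the genes: CD274 averaged 4.71 in KM-H2 and 5.89 in L428, while PDCD1LG2 averaged 7.38 in KM-H2 and 6.22 in L428, both differences called.

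Other genes near them on 9p24 showed the same order of vehicle levels between UHO-1 and SUP-HD1. Of 16 neighbours tested, 14 were called lower in UHO-1 than in SUP-HD1, where 26.7% of all genes were called lower. INSL6 and SLC1A1 were the 2 not called, with differences of -0.02 and -0.03. JAK2, the kinase gene gained with the ligands in this lymphoma, averaged 7.97 in UHO-1 and 9.67 in SUP-HD1, a difference of -1.70 (adjusted p = 8.62e-12). GLDC differed most among the neighbours, with 9.36 in UHO-1 and 11.59 in SUP-HD1. The median difference of the neighbours was -1.41 log2 units, against 0.05 over all genes. Copy number was not measured here. With 4-OHT, 5 of the 16 neighbours were called higher on average and 3 lower, where 17.4% of all genes were called higher and 21.2% lower. Without the arrays labelled L1236 5 were higher and 1 lower.

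**Figure D2:**
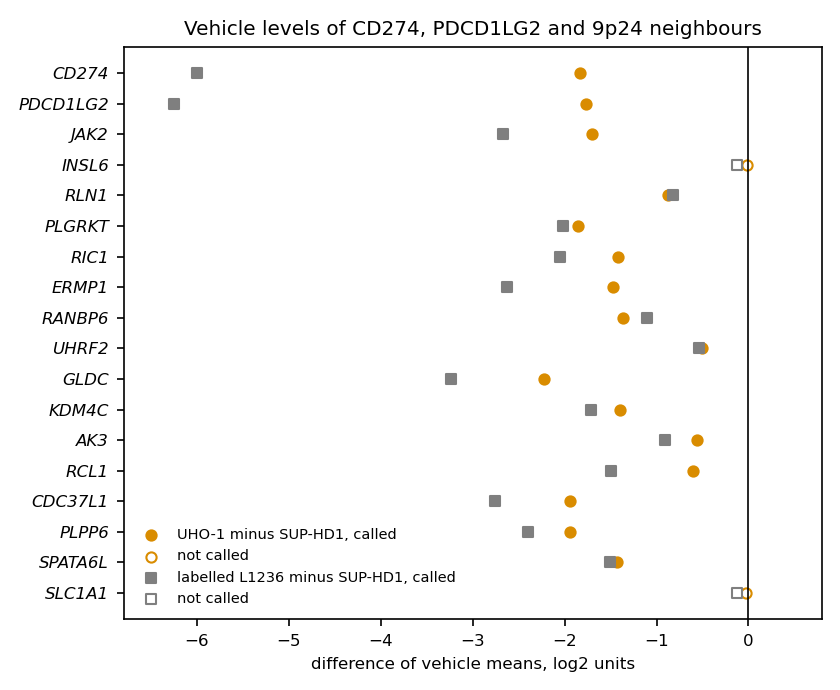
Difference of vehicle means (log2 units, horizontal axis) of CD274, PDCD1LG2 and 16 neighbours on 9p24: circles show UHO-1 minus SUP-HD1, squares the arrays labelled L1236 minus SUP-HD1, filled where called. All 18 genes lie left of 0 in both comparisons, and all but INSL6 and SLC1A1 are called in both.

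The bases before the start site of CD274 are shown because they hold matches to motifs of the factors named above. A total of 5 motifs were searched on both strands in RefSeq promoter windows of 300 bases, 250 before and 50 after the start site, of which 27305 were searched in all: FOXO GTAAACA, NF-kB GGGACTTTC and GGAAATTCC, STAT TTCNNNGAA and IRF GAAANNGAA. RefSeq windows of GRCh38.p14 were matched for 9 of the 10 genes, all but PDCD1LG2. The 250 bases before the CD274 start lie at chr9:5450292-5450541 on the plus strand. Capitals mark the matches, 5′ to 3′: at -207 and -201 a pair of IRF letters on the opposite strand that overlap by 3 bases, and at -125 STAT letters, a pattern that is matched on both strands.
CD274: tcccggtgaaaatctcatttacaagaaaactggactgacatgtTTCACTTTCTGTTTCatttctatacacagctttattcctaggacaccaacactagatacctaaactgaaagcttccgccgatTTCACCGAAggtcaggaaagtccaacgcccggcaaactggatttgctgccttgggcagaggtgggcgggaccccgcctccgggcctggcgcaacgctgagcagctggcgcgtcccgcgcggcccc
STAT letters stood in 7.88% of all windows and IRF letters in 8.29%. FOXO letters stood in 3.41% of all windows and in 0 of the 9, which says only that these letters are not in these windows.

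CD80 and CD86, the ligands of CD28 and CTLA-4, parted between KM-H2 and L428. CD80 had 6.54 and 6.74 in KM-H2 with 4-OHT, against 7.85 and 7.83 with vehicle. All 4-OHT values lay below all vehicle values. The change was -1.20 ± 0.10 log2 units, and the 4-OHT level was 0.434 of the vehicle level (adjusted p = 4.02e-09). In L428 the arms overlapped, with 8.17 and 8.27 with 4-OHT against 8.28 and 8.23. The difference between these responses, KM-H2 minus L428, was -1.17 ± 0.15 (adjusted p = 2.41e-06).

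CD80 had 4.50 and 4.93 in the arrays labelled L1236 with 4-OHT, against 5.00 and 5.02 with vehicle. This change of -0.30 was called (adjusted p = 0.0386) although the values lie about the level of 5. It was lost in 3 of the 4 fits that left out an array labelled L1236 (adjusted p up to 0.607) and under cyclic loess (0.0529), without an intensity trend (0.0586), and in fits of the set alone (0.0649) or these arrays alone (0.164). In UHO-1 CD80 changed by 0.02 and in SUP-HD1 by 0.16, neither called. The average of -0.27 ± 0.05 (adjusted p = 4.83e-05) was -0.27 also without the arrays labelled L1236, but only -0.04 and not called without KM-H2 (0.600).

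CD86 moved opposite ways in those lines. In KM-H2 it had 7.04 and 7.08 with 4-OHT, against 7.57 and 7.36 with vehicle. In L428 it had 10.50 and 10.63 with 4-OHT, against 9.98 and 10.04 with vehicle. The arms did not overlap in either: CD86 fell by 0.41 ± 0.11 log2 units in KM-H2 (adjusted p = 0.00651) and rose by 0.56 ± 0.11 in L428 (0.000275). The difference of -0.97 ± 0.15 was called (4.47e-05).

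UHO-1 had 11.33 and 11.35 for CD86 with 4-OHT, against 11.14 and 11.001 with vehicle, a change of 0.27 that was not called with all arrays (adjusted p = 0.0705) and was called without the arrays labelled L1236 (0.00967), with median centring (0.0422) and in its own arrays alone (0.00771). All 4 arrays labelled L1236 lay below 5, at 3.80 to 4.28. SUP-HD1 overlapped between arms, at 10.83 and 10.89 with 4-OHT and 10.97 and 10.87 with vehicle. The average was 0.06 and not called (0.343). The KM-H2 call was lost without its vehicle array 1 (0.126) or its 4-OHT array 1 (0.0532).

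Vehicle levels of CD80 averaged 10.26 in UHO-1, 9.27 in SUP-HD1 and 5.01 in the arrays labelled L1236, each step called. For CD86 UHO-1 and SUP-HD1 averaged 11.07 and 10.92 and their difference of 0.15 was not called (adjusted p = 0.245, 95% interval -0.07 to 0.38). For CD86 the mean was 4.09 in the arrays labelled L1236. KM-H2 had less of both than L428, 7.84 against 8.26 for CD80 and 7.47 against 10.01 for CD86.

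HHLA2, a B7 family member that binds TMIGD2 and KIR3DL3, was present above 5 in SUP-HD1 alone among the 5 lines. It had 7.75 and 7.40 there with 4-OHT, against 8.89 and 8.49 with vehicle. The arms were apart, and HHLA2 fell by 1.11 ± 0.14 log2 units, to 0.463 of the vehicle level (adjusted p = 1.72e-05). The other 16 arrays lay between 3.49 and 4.73, and no change was called there. The difference of the responses from SUP-HD1 was 1.17 for the arrays labelled L1236 (adjusted p = 0.000325) and 1.06 for UHO-1 (0.0026), both against lines at background. The average of -0.24 (adjusted p = 0.00409) was -0.03 without SUP-HD1 (0.812).

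CD276, known as B7-H3, was called in L428 alone. It had 5.56 and 6.02 there with 4-OHT, against 6.02 and 6.87 with vehicle, so the arms overlapped, if barely. The change was -0.65 ± 0.19 (adjusted p = 0.0105), and it was -0.23 (0.425) without vehicle array 2 and -0.42 (0.199) without 4-OHT array 1. KM-H2 held 8.48 and 8.79 with 4-OHT and 8.56 and 8.67 with vehicle, overlapping. The set of 3 lines lay between 5.90 and 6.23 in all 12 arrays, and neither their vehicle levels nor their changes were called as different. The average of -0.17 was not called (0.133) and neither was the test between lines (0.15).

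**Figure D3:**
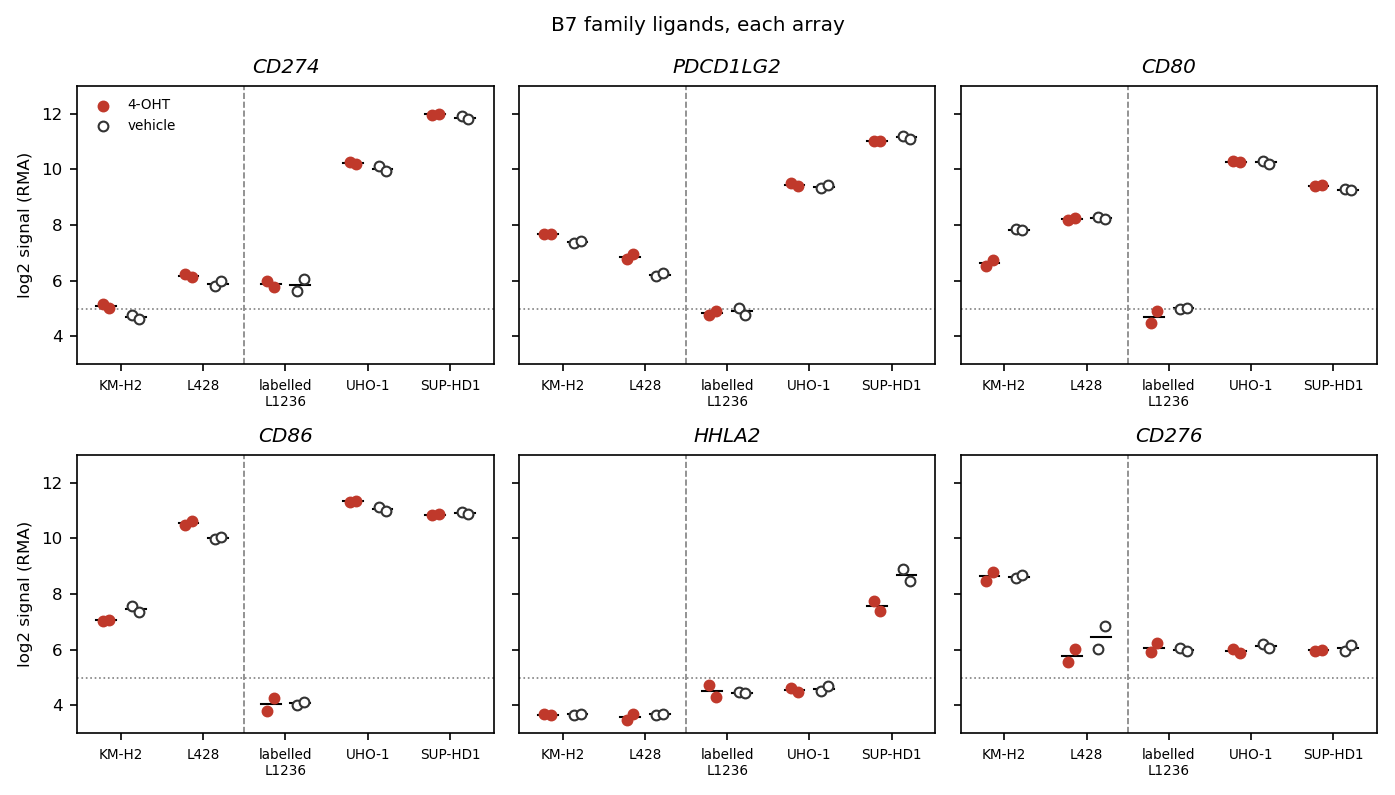
Log2 signal (RMA, vertical axis) of the 6 B7 family ligands in each of the 20 arrays, by line, with 4-OHT arrays as filled points left of vehicle arrays as open points, and short bars for means. The dotted line is the level of 5 and the dashed line parts the arrays normalised separately; HHLA2 lies above 5 in SUP-HD1 alone, and the arrays labelled L1236 lie lowest of their set for CD80 and CD86.

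CD83, a glycoprotein of activated B cells and dendritic cells, was the gene of the 10 that rose in most lines. In KM-H2 it had 11.60 and 11.55 with 4-OHT, against 10.45 and 10.36 with vehicle. In SUP-HD1 it had 9.79 and 9.88 with 4-OHT, against 8.58 and 8.53 with vehicle. These were the largest of its changes, 1.17 ± 0.06 log2 units in KM-H2 (adjusted p = 5.09e-13, ratio 2.25) and 1.28 ± 0.06 in SUP-HD1 (1.05e-12, ratio 2.43).

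L428 had 11.58 and 11.72 for CD83 with 4-OHT, against 10.91 and 10.95 with vehicle. UHO-1 had 11.68 and 11.71 with 4-OHT, against 11.05 and 10.95. The arms were apart in both, by 0.72 ± 0.06 (adjusted p = 3.12e-09) and 0.70 ± 0.06 (1.5e-08). The arrays labelled L1236 went the other way, with 8.34 and 8.28 with 4-OHT against 8.55 and 8.58 with vehicle, a change of -0.26 ± 0.06 (0.00258) that was not called when these 4 arrays were fitted alone (0.112). A call upward in at least 4 lines was seen in 1.67% of all genes.

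The change of CD83 varied between the lines, also among the 4 without the arrays labelled L1236 (adjusted p = 1.44e-11 and, without them, 9.76e-06). It was larger in KM-H2 than in L428 by 0.45 ± 0.08 (0.00035) and smaller in UHO-1 than in SUP-HD1, by -0.58 ± 0.08 (0.000124). The response in the arrays labelled L1236 differed from that in UHO-1 by -0.95 ± 0.08 (adjusted p = 2.76e-08) and from that in SUP-HD1 by -1.53 ± 0.08 (1.25e-11). The average of 0.72 ± 0.03 became 0.97 ± 0.03 without the arrays labelled L1236. All 20 fits that left out 1 array kept the calls of CD83 in the 5 lines. Vehicle levels were highest in UHO-1, at 11.05 and 10.95, and averaged 8.55 in SUP-HD1 and 8.56 in the arrays labelled L1236, which were not called as different (adjusted p = 0.909, 95% interval -0.11 to 0.14).

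CD83 is the gene with the widest upward response, and its upstream bases are shown for comparison with CD274 and ICAM1: none of the 5 motifs was matched in its window, so no letters are in capitals. They lie at chr6:14117006-14117255, plus strand, in GRCh38.p14 (RefSeq).
CD83: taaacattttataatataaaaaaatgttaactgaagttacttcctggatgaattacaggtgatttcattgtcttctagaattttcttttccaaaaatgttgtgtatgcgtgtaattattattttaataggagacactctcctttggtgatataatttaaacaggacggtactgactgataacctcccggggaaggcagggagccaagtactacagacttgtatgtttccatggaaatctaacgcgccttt

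Of the adhesion ligands, ICAM1 was called lower in KM-H2 and higher in the arrays labelled L1236. In KM-H2 it had 10.12 and 10.13 with 4-OHT, against 10.60 and 10.55 with vehicle, apart by -0.45 ± 0.06 log2 units (adjusted p = 4.53e-06). In the arrays labelled L1236 it had 6.98 and 6.98 with 4-OHT, against 6.76 and 6.72 with vehicle, a change of 0.24 ± 0.06 (0.00477) that median centring ended (0.0892), as did a fit of these arrays alone (0.377). The changes in L428, UHO-1 and SUP-HD1 were 0.15, 0.16 and 0.11, none called.

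L428 had 10.267 and 10.45 for ICAM1 with 4-OHT, against 10.15 and 10.2625 with vehicle, so the arms were apart, if barely. KM-H2 and L428 differed in response by -0.60 ± 0.09 (adjusted p = 1.36e-05), and the change varied over the 5 lines (4.84e-06) and over the 4 without the arrays labelled L1236 (1.17e-05). The average, 0.04, was not called with all lines (0.252), and was 0.16 and called without KM-H2 (0.000144). Vehicle levels averaged 11.56 in UHO-1 and 11.70 in SUP-HD1, not called as different (0.0518), and 6.74 in the arrays labelled L1236.

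The 250 bases before the ICAM1 start, chr19:10270870-10271119 on the plus strand of GRCh38.p14 (RefSeq), are shown because this window alone of the 9 held an NF-kB match. In capitals stand the NF-kB letters at -186, which 0.472% of all windows hold, and STAT letters at -75.
ICAM1: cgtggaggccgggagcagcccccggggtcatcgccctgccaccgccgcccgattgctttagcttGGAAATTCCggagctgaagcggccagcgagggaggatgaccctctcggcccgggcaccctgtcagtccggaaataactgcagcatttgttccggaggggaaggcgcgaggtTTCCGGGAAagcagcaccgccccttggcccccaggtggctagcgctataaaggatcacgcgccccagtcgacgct
The other NF-kB letters searched stood in 0.366% of all windows and in 0 of the 9.

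CD58, the ligand of CD2, was lower with 4-OHT in all 5 lines in value and was called in KM-H2. It had 7.13 and 6.83 there with 4-OHT, against 7.27 and 7.62 with vehicle, apart by -0.46 ± 0.12 (adjusted p = 0.00443), a call lost without vehicle array 2 (0.151) or 4-OHT array 2 (0.122). The other changes were -0.10 in L428, -0.18 in UHO-1, -0.15 in SUP-HD1 and -0.24 in the arrays labelled L1236, none called. The average fell by 0.23 ± 0.05 (adjusted p = 0.0011), and without the arrays labelled L1236 it fell by 0.22 ± 0.06 (0.00307). The test between lines was not passed (0.324).

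Vehicle levels of CD58 averaged 8.57 in UHO-1, 5.26 in SUP-HD1 and 9.18 in the arrays labelled L1236, each step called, with SUP-HD1 close to the level of 5. KM-H2 averaged 7.45 and L428 8.80.

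CD48, a GPI-anchored SLAM family ligand of CD244 and CD2, fell in KM-H2. It had 6.36 and 6.14 there with 4-OHT, against 7.23 and 7.39 with vehicle, apart by -1.06 ± 0.11, to 0.479 of the vehicle level (adjusted p = 1.78e-07). L428 lay below 5 in all 4 arrays, at 4.45 to 4.62, so the difference of responses of -1.15 (1.18e-05) was against a line at background. The arrays labelled L1236 had 9.07 and 9.01 with 4-OHT, against 9.42 and 9.29, a change of -0.31 not called (0.0532). UHO-1 changed by -0.27 and SUP-HD1 by 0.08, both near the level of 5 and neither called. The average of -0.29 ± 0.05 (adjusted p = 6.75e-05) was -0.10 without KM-H2 (0.18). The arrays labelled L1236 had the highest CD48 of their set, 9.35 with vehicle, against 5.42 in UHO-1 and 5.25 in SUP-HD1, which were not called as different (0.235).

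**Figure D4:**
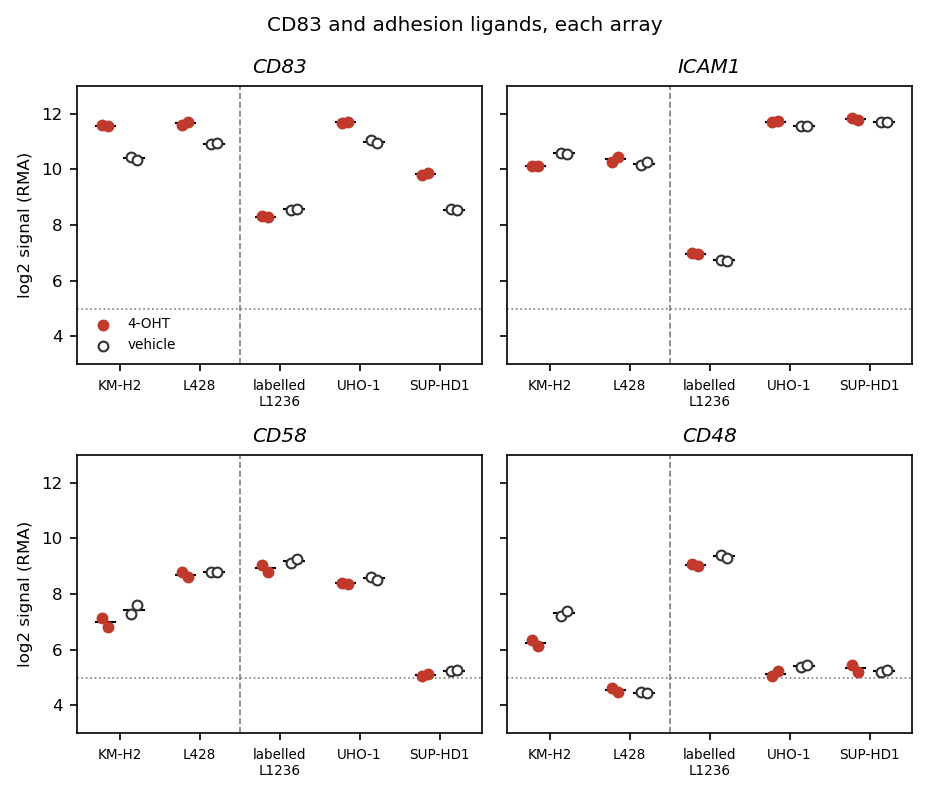
Log2 signal (RMA, vertical axis) of CD83, ICAM1, CD58 and CD48 in each of the 20 arrays, by line, with 4-OHT arrays as filled points left of vehicle arrays as open points, and short bars for means. The dotted line is the level of 5 and the dashed line parts the arrays normalised separately; CD48 is highest in the arrays labelled L1236, where ICAM1 is lowest.

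Over the 10 genes, 7 were called on average of the 5 lines, 3 higher (CD274, PDCD1LG2, CD83) and 4 lower (CD80, HHLA2, CD58, CD48), where 17.4% of all genes were called higher, 21.2% lower and 38.6% either way. Without the arrays labelled L1236 there were again 3 higher and 4 lower, against 39.2%. With the 5 lines taken as the replicates, limma called none of the 10 and 1 gene in all. In that fit 3 of the 10, CD83, CD58 and CD274, had an unadjusted p below 0.05, as had 2496 of the 15850 genes tested. The averages of the other genes without those arrays were 0.22 for PDCD1LG2, -0.32 for HHLA2 and -0.29 for CD48, all called, and 0.09 for CD86, -0.23 for CD276 and -0.01 for ICAM1, not called. The change varied between lines for 7 of the 10, against 42.7% of all genes. It varied for the same 7 without the arrays labelled L1236, against 36.4% of all genes there. CD83, CD86 and ICAM1 were called higher in at least 1 line and lower in at least 1 other, which 8.12% of all genes were. For CD83 the lower call, and for ICAM1 the higher one, came from the arrays labelled L1236, and without those arrays CD86 alone of the 10 was called both ways, against 4.51% of all genes. Between KM-H2 and L428 the response differed for 5 of the 10, against 22.9% of all genes. It differed for 1 between the arrays labelled L1236 and UHO-1 (25.7%), for 3 between those arrays and SUP-HD1 (14.1%), and for 2 between UHO-1 and SUP-HD1 (4.04%). HHLA2 is among the 7 called on average, among the 3 and the 2 set against SUP-HD1, and among the 7 whose change varied between lines. It was tested only because of its level in SUP-HD1 and lay at background in the other lines, so it adds no support to these counts. Vehicle levels differed for 9 of 10 between KM-H2 and L428 (54.2%), for 8 between the arrays labelled L1236 and UHO-1 (56.8%), for 8 between those and SUP-HD1 (57.5%), and for 6 between UHO-1 and SUP-HD1 (53.8%). HHLA2 is among the 8 and the 6 set against SUP-HD1, a difference fixed by the level asked of a tested gene, and without it 7 and 5 of the other 9 were called.

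The KM-H2 response ran beside marker genes and NF-kB target genes. Of 19 NF-kB targets tested, 10 were called lower and 1 higher in KM-H2, against 12.3% and 10.0% of all genes, with a median of -0.38 log2 units against 0.00 over all genes. LTA, a TNF family cytokine, fell by 1.54 ± 0.07 (adjusted p = 1.81e-13) and TNF by 0.86 ± 0.10 (6.6e-07), while TNFAIP3, an inhibitor of NF-kB, rose by 0.46 ± 0.06 (7.08e-06). In SUP-HD1 5 of the 19 were higher and 1 lower, against 3.68% and 2.35% of all genes. Of 8 Hodgkin markers 3 were lower in KM-H2, with a median change of -0.08. Their summed level there was 12.10 to 12.23 with 4-OHT and 12.53 to 12.55 with vehicle. This was not particular to KM-H2. In L428 4 of the 8 were lower, against 17.5% of all genes, with a median of -0.24. The summed level in L428 was 12.54 to 12.71 with 4-OHT and 13.17 to 13.26 with vehicle. Of 7 B cell markers tested 4 were lower in KM-H2, where 12.3% of all genes were called lower. Of 8 stromal markers tested LUM and DCN were higher in KM-H2, with LUM at a change of 8.77 ± 0.12 and DCN at 3.39 ± 0.11, while COL1A1 was lower and 5 were not called. Their median change was 0.03 log2 units. The summed stromal level was 12.19 to 12.44 with 4-OHT and 8.74 to 8.75 with vehicle, and 7 of the 9 listed averaged at least 5 with 4-OHT and 5 of the 9 with vehicle. The part of these markers in the changes of the 10 genes was not tested.

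Other families moved by line as well. In JAK-STAT and interferon genes 10 of 20 were called higher and 8 lower on average. SOCS1, an inhibitor of JAK signalling, was lower in 4 lines, at -1.98 ± 0.10 log2 units in KM-H2 (adjusted p = 9.47e-13). PIM1 and PIM2, kinase genes induced by STAT factors, were each higher in 4 lines. GBP2, an interferon-induced GTPase, was higher in 4 lines and lower in the arrays labelled L1236. JAK1 rose in 4 lines, by 0.48 ± 0.02 on average.

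Among 12 further B7 and butyrophilin genes, 2 were higher and 4 lower on average. BTN3A2 and BTN3A3, butyrophilins related to those that activate gamma delta T cells, were lower in 3 lines each, in KM-H2 by -1.27 ± 0.10 and -1.23 ± 0.14, and share close sequence, so probe sets may read both. Of 12 other checkpoint ligands 2 were higher and 4 lower. CD47, which signals to macrophages, fell by 1.33 ± 0.07 in KM-H2 and by 0.42 ± 0.03 on average. Of 9 receptors of these ligands 1 was higher and 4 lower, among them ITGAL, a chain of LFA-1, at -1.49 ± 0.13 in L428. Of 7 other SLAM family genes 2 were higher and 1 lower, SLAMF6 with a change of 1.09 in the arrays labelled L1236 and no call in the other lines. Of 17 other adhesion molecules 7 were higher and 3 lower: CD99 was higher in 4 lines and ICAM2 lower in 3. Of 7 genes known to act on PD-L1 protein 1 was higher, CMTM6, which keeps PD-L1 from degradation, at 0.18 ± 0.03, and 3 were lower. All of these shares are to be read against 17.4% of all genes higher and 21.2% lower on average. Without the arrays labelled L1236 4 adhesion molecules were higher and 1 lower, 2 SLAM genes were lower and 3 receptors were lower. The counts were then 2 higher and 5 lower for the B7 and butyrophilin genes and 9 higher and 8 lower for the JAK-STAT and interferon genes.

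**Figure D5:**
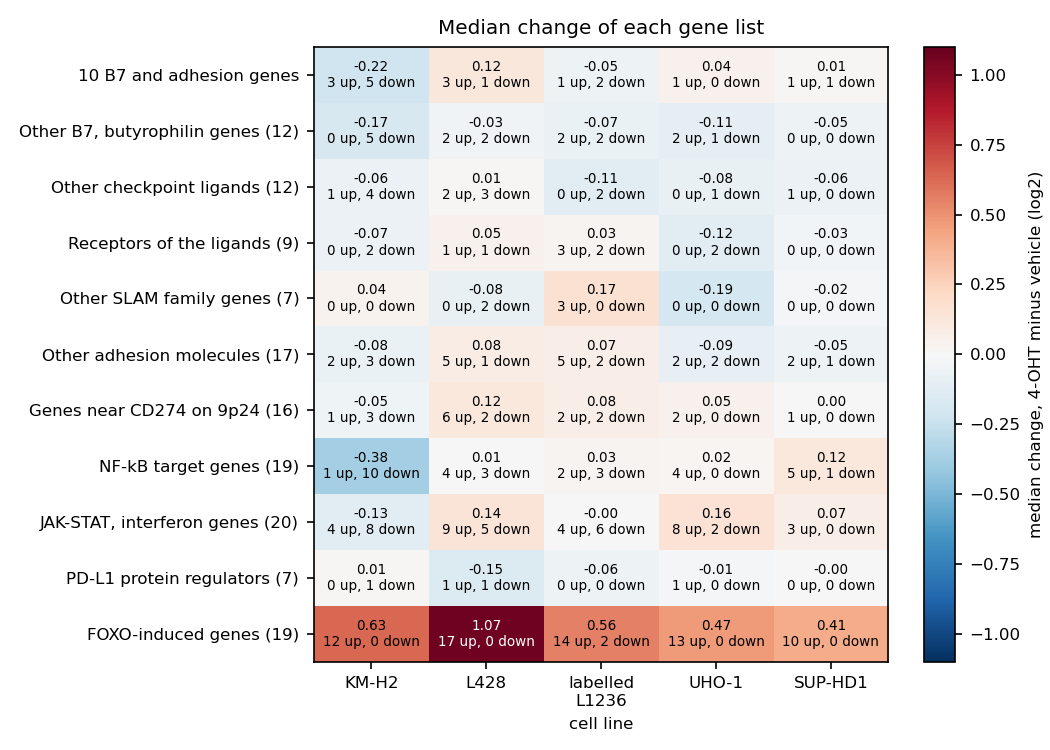
Median change (4-OHT minus vehicle, log2 units, colour and upper number) of the 10 genes and of 10 other gene lists in each line, with the number of genes called higher (up) and lower (down) in each cell and the number tested in brackets. NF-kB targets have their lowest median in KM-H2, and the FOXO-induced genes lie above 0 in every line.

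Correlations over the 20 arrays after each line's mean was taken away describe which genes moved together, and the arrays of a line share its treatment. Among the 10, CD80 and CD48 were the most alike (Pearson r = 0.85), then CD58 and CD48 (0.77) and CD274 and CD83 (0.71). Across all genes tested EBI3, a cytokine subunit, was the most like CD80 (0.96), PRDM4 the most like CD83 (0.96), RASSF4 the most like CD48 (0.93) and CLIP2 the most like ICAM1 (0.94). SLC35D1 was the most like CD274 (0.92), PTK2 like PDCD1LG2 (0.90), CYFIP1 like CD86 (0.92), LRATD2 like HHLA2 (0.88; HHLA2 lay above 5 in the 4 arrays of SUP-HD1 alone), FRMPD3 like CD276 (0.90) and PTER like CD58 (0.90).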

How the data were processed

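The values the authors deposited are on a log2 scale. Per the labels' protocols and the submitters' processing notes they come from Affymetrix Human Gene 1.0 ST arrays and the RMA algorithm (robust multichip average) in Expression Console, which removes background, normalises the arrays to each other and gives 1 value a probe set. Its version, the annotation level and the genome build of the array are not given in the sources used here. Sorted values differed by at most 0.253 within the 8 arrays of KM-H2 and L428, by at most 0.204 within the 12 others and by at least 0.712 between these sets, so levels were compared between lines only within a set.

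Of 33268 probe sets 19457 had 1 symbol, 1751 several and 12060 none listed. Where a gene had more than 1 probe set (767 genes), that of highest mean signal stood for it; the 10 genes reported have 1 each. Genes at log2 5 or more in at least 2 arrays (15850 of 18416) were tested with limma 3.58.1 in R 4.3.3: 10 group means over 20 arrays, 10 residual and 11.8 prior degrees of freedom, an intensity trend, two-sided, adjusted by Benjamini-Hochberg over all genes tested at 0.05. The fit was tested on simulated data. Errors are limma's standard errors. Arrays have no read depth, and their number limits the precision.

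The 10 genes, the lists (B7 and butyrophilin, checkpoint ligands, receptors, SLAM, adhesion, 9p24, NF-kB, JAK-STAT and interferon, PD-L1 protein, FOXO-induced, and Hodgkin, B, T, NK, myeloid, dendritic and stromal markers) and the tests were chosen with earlier results of these data known. Named besides the 10 were genes with the smallest average p in a list or called in at least 4 lines, and those most alike. For markers, the defining ones are named by their levels, and GLDC, INSL6 and SLC1A1 were named after their values were seen. On average 1 of 9 T cell markers was called higher and 1 of 5 NK cell markers lower. Of 7 myeloid markers 2 were higher and 2 lower, and of 6 dendritic cell markers 2 were lower. Among all genes 17.4% were called higher and 21.2% lower on average. The main fit did not pair arrays by replicate number. Same-numbered deviations correlated at -0.08 in KM-H2, 0.04 in L428, 0.29 in UHO-1, 0.28 in SUP-HD1 and -0.56 in the arrays labelled L1236. Some spread was thus shared by number in UHO-1 and SUP-HD1, and across numbers in the arrays labelled L1236. Its source was not tested, and fits with a replicate block are given below. Alternatives were scaling, the floor, the trend, quantile normalisation, each set or line alone, each array or line left out, lines as replicates and a replicate block.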

Additional observations from a re-analysis of the deposited data

Results flagged for a closer look

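The change with 4-OHT differed between lines for 7 of the 10 genes by limma's F test over the 5 lines, against 42.7% of all genes. The adjusted p was 1.44e-11 for CD83, 5.95e-07 for CD80, 4.84e-06 for ICAM1, 2.51e-05 for CD48, 0.000242 for CD86, 0.000281 for HHLA2 and 0.00032 for PDCD1LG2. HHLA2 was tested only because of its level in SUP-HD1 and lay at background in the other lines.

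Differences of responses between lines of one set were tested in the same fit. KM-H2 minus L428 was called for CD80 at -1.17 log2 units, for CD86 at -0.97, for ICAM1 at -0.60, for CD48 at -1.15 and for CD83 at 0.45. The arrays labelled L1236 minus SUP-HD1 were called for CD80 at -0.46, for HHLA2 at 1.17 and for CD83 at -1.53. CD83 was also called for the arrays labelled L1236 minus UHO-1 at -0.95 and for UHO-1 minus SUP-HD1 at -0.58, where HHLA2 stood at 1.06. The L428 arrays lay at background for CD48, as did UHO-1 and the arrays labelled L1236 for HHLA2.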

How the results depend on the processing

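Over all pairs of a result and an alternative, 2205 kept direction and side of the threshold, 47 lost a call or fell in count, 36 gained one or rose in count and 2 turned their direction. Many of these pairs could not change direction. Leaving out an array of 1 line leaves the changes of the other lines as they were. The floor, the trend and the replicate block also leave the changes of the 10 genes as they were. The total is therefore no measure of how stable the results are. ICAM1 on average was -0.149 in KM-H2 and L428 alone (adjusted p = 0.0207), and PDCD1LG2 on average was -0.042 in the arrays labelled L1236, UHO-1 and SUP-HD1 alone (0.619). The number of the 10 genes called in UHO-1 was 3 with median centring, 3 in its arrays alone, 2 without the arrays labelled L1236 and 2 with the L1236 numbers crossed, against 1. Over all genes these fits called, in that order, 2448 higher and 914 lower, 2496 and 2466, 2309 and 2145, and 2677 and 2683, against 2118 and 1760. For the arrays labelled L1236 fitted alone 1 of the 10 was called, against 3. Over all genes 1109 were then higher and 1925 lower, against 1307 and 2354. On average of the lines 4 of the 10 were called in the 3 lines normalised together and 0 with lines as replicates, against 7. Those 3 lines gave 1997 higher and 1982 lower over all genes, against 2765 and 3357. For the test between lines 2 of the 10 were called in those 3 lines, against 7. The cause was not tested. Leaving out 1 array gave 5 to 8 in KM-H2 (5 without vehicle 2 or 4-OHT 1), 4 to 5 in L428, 2 to 4 in the arrays labelled L1236, 1 to 2 in UHO-1 (2 without either 4-OHT array labelled L1236 or either 4-OHT array of L428), 2 in SUP-HD1, and 7 to 8 on average and between lines. Calls gained without 1 array were CD276 on average and between lines without L428 vehicle 1 (0.00512 and 0.00271), CD86 on average without 4-OHT 1 labelled L1236 (0.022), CD86 in the arrays labelled L1236 without 4-OHT 2 (0.0491), ICAM1 in L428 without its vehicle 2 (0.0477) or 4-OHT 1 (0.00886), CD274 in L428 without either vehicle array labelled L1236 (0.0236 and 0.0238), CD86 in UHO-1 without either 4-OHT array labelled L1236 (0.0172 and 0.0174) and ICAM1 in UHO-1 without either 4-OHT array of L428 (0.0433 and 0.0436). CD48 was called in the arrays labelled L1236 with median centring (0.0159), cyclic loess (0.0234), a floor of 6 (0.0482), no trend (0.0345) and those arrays alone (0.0131). Median centring moved the split of calls over all genes to 855 higher and 2765 lower in the arrays labelled L1236 (1307 and 2354 before), 2448 and 914 in UHO-1 (2118 and 1760) and 457 and 169 in SUP-HD1 (583 and 373). With the replicate block, 8 of the 10 were called on average and 8 between lines, since CD276 gained both calls (adjusted p = 0.0323 and 0.0247). The block changed no other call among the 10, and over all genes it called 2657 higher and 3220 lower on average. With the numbers of the arrays labelled L1236 crossed, 8 were called in KM-H2, 6 in L428 and 4 in those arrays. Over all 15850 genes that fit called 1889 higher and 2277 lower in KM-H2. It called 2218 and 3158 in L428 and 1584 and 2710 in the arrays labelled L1236. The crossed numbers and the fit without those arrays were chosen after seeing the data. Signals near the level of 5 limit CD274 in KM-H2, CD80 and PDCD1LG2 in the arrays labelled L1236, and CD48 in L428.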

Other observations

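Many genes other than the 10 changed with 4-OHT in a line by more than any of the 10 did, and some of them are given here. In the arrays labelled L1236, LYZ, which encodes lysozyme, rose by 3.66 ± 0.13 log2 units (adjusted p = 1.54e-15), CD79A, a chain of the B cell receptor, by 2.36 ± 0.13 (3.07e-12) and CR2, a complement receptor, by 2.26 ± 0.12 (4.71e-12). In KM-H2 CR2 fell by 2.59 ± 0.12 (1.51e-13) and ITGAM, an integrin chain, by 1.60 ± 0.13 (9.92e-10).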
